A study of Mus musculus with 6 samples.

Results

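The genes described here are the mouse major histocompatibility complex (MHC) genes, taken as every protein-coding gene of the GENCODE vM1 annotation whose symbol starts with H2-. The rule found 36 of the 22380 coding genes, and all 36 lie on chromosome 17 of the genome build mm9. They were divided by name into 2 classical class I genes (H2-K1 and H2-D1), 23 class Ib genes (6 named H2-Q, 5 named H2-T and 12 named H2-M), 9 class II genes and 2 genes, H2-Ke2 and H2-Ke6, that encode no MHC chain. The symbol H2-Q2 is carried by 2 gene IDs, called proximal and distal here in their order along the chromosome. A further 6 H2- symbols are annotated as pseudogenes or non-coding and were not counted: H2-K2, H2-Ea-ps, H2-Q8, H2-Bl, H2-T10 and H2-M6-ps.

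Open chromatin was mapped by ATAC-Seq, in which a transposase cuts accessible DNA, in Beko, a progenitor T-cell line of the mouse with constitutive Notch signaling. Of 6 libraries, 3 came from cells given the solvent DMSO for 24 h and 3 from cells given DAPT for 24 h, a γ-secretase inhibitor (GSI) that keeps Notch from being cleaved and so denies RBPJ, the DNA-binding factor of the pathway, its coactivator. The data are a single merged list of 32527 peaks, each with a position and no height, so GSI was not compared with DMSO, no value below has a replicate error, and no test was made. All libraries are of the same cell line, the labels do not say whether replicates were separate cultures, and neither the mouse strain of the line nor its MHC haplotype is given in the sources used here. A peak that is open in some of the cells and one that is less open in all of them cannot be told apart.

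MHC class I molecules are a heavy chain paired with β2-microglobulin, and they show peptides made in the cytosol to CD8 T cells on nearly all nucleated cells. Class II molecules are pairs of an α and a β chain that show peptides from endosomes to CD4 T cells, mainly on B cells, dendritic cells and macrophages, and in mouse they are largely silent in T cells. Their promoters share an upstream module in which RFX factors bind an X box, CREB an adjoining site and NF-Y a reversed CCAAT box, and the coactivators CIITA (class II) and NLRC5 (class I) are recruited to it. Class Ib genes are relatives of class I with fewer alleles, narrower expression and, in several cases, other ligands than peptides.

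The windows that carry the promoter module are shown first, because they let the peaks be read against the letters under them. Each window is the mm9 sequence from 250 bases before to 50 bases after a start, 5′ to 3′ on the strand of the gene, and capitals mark, on either strand, ACNGATG (X box letters), TGACG (the core letters of a CREB site), CCAAT (read ATTGG when reversed, NF-Y) and GGGATTCCC (an NF-κB site). ACNGATG and TGACG overlap where they run together. For the class II chains the windows are chr17:34399904-34400203 (plus strand), chr17:34424723-34425022 (minus), chr17:34442578-34442877 (plus) and chr17:34462360-34462659 (plus).
H2-Ab1: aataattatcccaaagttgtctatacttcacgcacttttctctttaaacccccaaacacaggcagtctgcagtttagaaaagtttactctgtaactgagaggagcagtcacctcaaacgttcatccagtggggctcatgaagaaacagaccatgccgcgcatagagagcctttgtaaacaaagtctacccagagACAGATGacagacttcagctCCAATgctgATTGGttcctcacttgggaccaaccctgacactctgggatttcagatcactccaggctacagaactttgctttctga
H2-Aa: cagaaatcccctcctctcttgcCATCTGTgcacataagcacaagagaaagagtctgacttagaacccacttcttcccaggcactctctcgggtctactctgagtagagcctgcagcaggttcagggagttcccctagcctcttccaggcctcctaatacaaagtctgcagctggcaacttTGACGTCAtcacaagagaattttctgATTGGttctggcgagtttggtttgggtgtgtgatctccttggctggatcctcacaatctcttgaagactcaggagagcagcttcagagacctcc
H2-Eb1: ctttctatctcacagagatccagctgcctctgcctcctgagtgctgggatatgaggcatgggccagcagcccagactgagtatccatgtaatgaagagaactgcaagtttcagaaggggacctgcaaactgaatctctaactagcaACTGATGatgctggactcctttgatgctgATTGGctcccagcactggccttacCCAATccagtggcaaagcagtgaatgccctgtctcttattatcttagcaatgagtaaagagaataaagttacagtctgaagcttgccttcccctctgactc
H2-Eb2: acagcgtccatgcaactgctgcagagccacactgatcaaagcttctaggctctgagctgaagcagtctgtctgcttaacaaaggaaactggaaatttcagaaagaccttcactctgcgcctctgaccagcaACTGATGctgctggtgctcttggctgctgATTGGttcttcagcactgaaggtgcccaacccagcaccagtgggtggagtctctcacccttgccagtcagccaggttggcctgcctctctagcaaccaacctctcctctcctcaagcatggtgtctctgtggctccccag

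For the class I and Ib genes the windows are chr17:34137229-34137528 (minus strand), chr17:35399789-35400088 (plus), chr17:35516312-35516611 (plus) and chr17:37406915-37407214 (plus). The H2-D1 window is set at a later annotated coding start, position 35400039, the last coding start inside the promoter peak of the gene. This choice was made for D1 alone, and all other windows printed are at the most 5′ start. The most 5′ start of H2-D1, 35399675, also lies inside that peak, but the window there does not hold the pair of letters described next.
H2-K1: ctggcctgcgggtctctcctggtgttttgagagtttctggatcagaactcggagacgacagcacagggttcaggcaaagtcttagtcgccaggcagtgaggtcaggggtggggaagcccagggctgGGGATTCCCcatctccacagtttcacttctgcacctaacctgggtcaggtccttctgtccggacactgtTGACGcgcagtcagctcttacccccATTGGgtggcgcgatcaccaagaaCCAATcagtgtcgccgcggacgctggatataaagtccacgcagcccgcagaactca
H2-D1: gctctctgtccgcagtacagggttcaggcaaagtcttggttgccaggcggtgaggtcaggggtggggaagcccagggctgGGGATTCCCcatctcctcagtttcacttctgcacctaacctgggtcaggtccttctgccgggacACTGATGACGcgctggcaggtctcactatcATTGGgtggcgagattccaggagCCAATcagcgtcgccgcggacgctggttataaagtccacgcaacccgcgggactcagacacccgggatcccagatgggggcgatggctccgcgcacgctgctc
H2-Q4: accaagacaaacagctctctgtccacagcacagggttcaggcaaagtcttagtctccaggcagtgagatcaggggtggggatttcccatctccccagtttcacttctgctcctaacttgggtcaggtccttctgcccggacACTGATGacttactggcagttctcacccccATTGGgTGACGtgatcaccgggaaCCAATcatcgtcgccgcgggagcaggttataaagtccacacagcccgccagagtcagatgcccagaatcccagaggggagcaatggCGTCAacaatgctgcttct
H2-M3: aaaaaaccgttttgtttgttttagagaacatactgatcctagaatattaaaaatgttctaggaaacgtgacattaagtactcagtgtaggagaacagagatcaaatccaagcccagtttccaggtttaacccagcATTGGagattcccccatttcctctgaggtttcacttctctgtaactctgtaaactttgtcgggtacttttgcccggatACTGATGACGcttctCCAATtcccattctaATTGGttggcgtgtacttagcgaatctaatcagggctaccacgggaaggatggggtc

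In Ab1, Eb1 and Eb2 the letters ACNGATG were followed by ATTGG after 22 bases, and in D1, Q4 and M3 after 23 bases. H2-Aa and H2-K1 lack that run but hold TGACG followed by ATTGG after 21 and 20 bases. Among all 22380 coding genes, 33 windows at the most 5′ start (0.147%) held ACNGATG followed by ATTGG with 10 to 30 bases between, and 8 of the 33 belonged to H2- genes, namely Ab1, Eb1, Eb2, Q4, Q6, Q7, M10.4 and M3. In M10.4 the pair lay on the other strand with a gap of 12 bases, and in the other 7 the gap was 22 or 23. With windows at every start of a coding transcript, as used for D1, 60 genes (0.268%) held the pair, and the H2- genes among them were these 8, D1 and DMb2, the last without a promoter peak. The search was set up after the windows had been read, and windows of related genes are not independent of one another.

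Not all of the modules lay under a listed peak, and a missing peak in this list does not show closed chromatin. The windows of Eb1, Eb2 and Q4 lay wholly under a peak (100% of 300 bases), that of Ab1 to 92.7% and that of M3 to 79.0%. The windows of K1 and Aa held no base of any peak. The D1 window shown above also lay wholly under a peak, but its start was picked, for D1 alone, among the starts inside that peak. At the most 5′ start of D1 the peak began 21 bp upstream, so most of the window there lay outside it. Of the 8 genes with the spaced pair at the most 5′ start, 5 had a peak within 1 kb of a start and 3 (Q6, Q7 and M10.4) had none. Over all coding genes the share with such a peak was 46.9%, and these few related genes were not tested against it.

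A gene was counted as having a promoter peak when a peak came within 1 kb of any annotated transcript start. This was so for 14 of the 36 H2- genes (38.9%), beside 46.9% of all coding genes, 51.2% of the coding genes of chromosome 17 and 54.2% of the 153 coding genes that lie between the outermost H2- genes and are no members. The 14 were 1 of 2 class I genes, 6 of 23 class Ib genes (26.1%), 5 of 9 class II genes (55.6%) and both other genes. In 13 of the 14 the start itself lay inside the peak. The exception was H2-DMa, whose peak began 73 bp downstream. These shares describe small groups and were not tested, and with peaks of at least 500 bp only the class II count was 3 of 9, beside 43.8% of all coding genes. The neighbours that are no members include 16 olfactory receptor genes, none with a promoter peak. The other 137 had one in 60.6%.

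**Figure D1:**
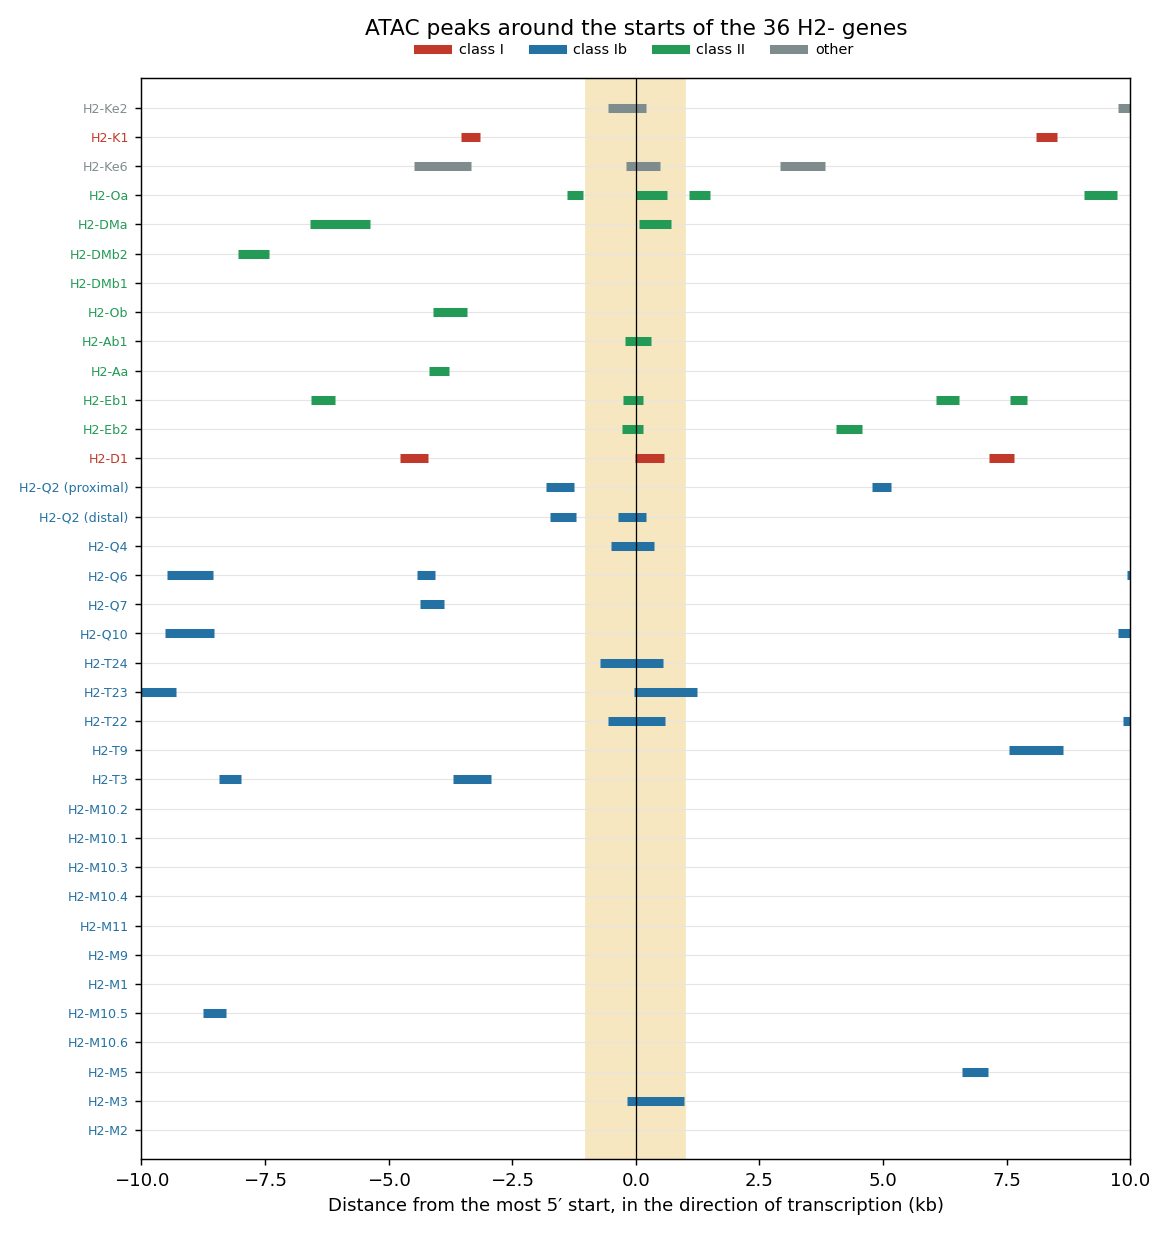
ATAC peaks (bars, to scale) within 10 kb of the most 5′ start of each of the 36 H2- genes, in the order along the chromosome, with the distance in kb read in the direction of transcription and the shaded band marking 1 kb on either side. Bars reach the band for 14 genes, and the rows of the H2-M genes are empty but for M10.5, M5 and M3.

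With the gene extended by 10 kb on either side, 29 of 36 H2- genes (80.6%) had at least 1 peak, beside 65.1% of all coding genes, 73.4% of those of chromosome 17 and 86.3% of the 153 neighbours. All 9 class II genes, both class I genes, all 6 H2-Q and all 5 H2-T genes were among them. The 7 without any were H2-M genes: M10.2, M10.4, M11, M9, M1, M10.6 and M2. The search found 56 distinct peaks, of which 49 were counted for 1 gene, 6 for 2 neighbours and 1 for 3. Of these 56, 15 were promoter peaks of an H2- gene, a further 11 lay at the start of some other gene and 30 at no annotated start. The promoter peaks of Ke2, Eb1, Q4, T23 and T22 also lay within 1 kb of a start of another gene.

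The classical class I genes differed from each other. H2-D1, the heavy chain of the D molecule, had a promoter peak of 584 bp at chr17:35399654-35400237, which spans both starts named above. Its other 3 peaks lay 4210 bp upstream (555 bp wide) and 2381 and 7211 bp past the gene end (499 and 428 bp). H2-K1, the heavy chain of the K molecule, had none within 1 kb of any of its 10 annotated starts. The nearest was 3150 bp upstream (chr17:34140428-34140814, 387 bp), and the only further one lay 3772 bp past the gene end (436 bp). The K1 window holds the TGACG and ATTGG letters, GGGATTCCC and a further CCAAT box that the D1 window also holds, and the 2-kb windows around the most 5′ starts aligned at 88.7% identity over 75.8% of the K1 window. Short stretches of the 2-kb K1 window are repeated elsewhere: 89.2% of its 50-mers and 100% of its 100-mers occur once in the genome. For the 2-kb D1 window the shares were 96.7% and 100%. That window is set at the most 5′ start, not at the later start shown above, and 62.8% of it aligned to the K1 start. The shares of K1 and D1 thus cover stretches that match only in part. Whether repeated sequence or the MHC haplotype of the line had a part in the missing peak was not tested.

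The class II genes encode 3 kinds of heterodimer that are complete in the coding annotation, and in each of them 1 chain had a promoter peak. For the A molecule it was the β chain, H2-Ab1 (527 bp, from 228 bp before to 298 bp after the start), whereas the α chain, H2-Aa, had its nearest peak 3788 bp upstream (387 bp). For DO, the inhibitor of DM, it was the α chain, H2-Oa, with 1 peak over the start (629 bp) and 1 in an intron (436 bp) 991 bp from a start, whereas H2-Ob had its nearest peak 3421 bp upstream (675 bp). For DM, which catalyses peptide loading, it was the α chain, H2-DMa (629 bp), whereas H2-DMb2 and H2-DMb1 had their nearest peaks 7424 bp upstream and 7620 bp downstream. In all, 2 of 3 α chains and 3 of 6 β chains had a promoter peak.

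The remaining class II genes were open at the start and around it. H2-Eb1, the β chain of the E molecule, had a promoter peak of 399 bp, 2 intronic peaks (481 and 345 bp) and 1 peak 6080 bp upstream (486 bp). H2-Eb2, a further β chain gene, had a promoter peak of 426 bp, an intronic one of 523 bp and 2 beyond its end (384 and 343 bp). Those 2 lie upstream of H2-Ea-ps, the α chain partner, which is annotated as a pseudogene in this genome and had no promoter peak. The peak of Ab1 was the one counted for 3 genes, since it lies within 10 kb of Ob and Aa too.

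Class Ib genes with a promoter peak were the distal H2-Q2 (565 bp), Q4 (870 bp), T24 (1270 bp), T23 (1268 bp), T22 (1150 bp) and M3 (1153 bp). H2-T23 encodes Qa-1, which displays leader peptides of other class I chains to natural killer cell receptors. H2-T22 is seen by γδ T cells, and H2-M3 presents peptides that start with formylmethionine. By family, 2 of 6 H2-Q, 3 of 5 H2-T and 1 of 12 H2-M genes were in the group. The M3 peak reached from 187 bp before to 965 bp after the start and was the only peak within 10 kb of that gene.

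Among the class Ib genes without a promoter peak, the proximal H2-Q2 came closest, with a peak ending 1252 bp upstream (573 bp), and its distal namesake had a similar one 1212 bp upstream (519 bp) beside its promoter peak. H2-Q6 and H2-Q7, the latter encoding Qa-2, had their nearest peaks 4064 and 3878 bp upstream. H2-Q10, which encodes a soluble molecule made by the liver, had none nearer than 8539 bp. H2-T3, the thymus leukemia antigen, had 1 at 2923 bp upstream (773 bp), at the start of the gene model Gm4246, and H2-T9 had 1 peak 7540 bp downstream (1108 bp), which is the promoter peak of H2-T10. For the H2-M genes the nearest peak lay 6106 bp (M5) to 212344 bp (M2) away, apart from M3. H2-M10.1, M10.3, M10.5 and M5 had 1 peak each within 10 kb of the gene, 7068 and 9195 bp past the gene end, 8283 bp upstream and 1122 bp past the gene end. The H2-M10 genes are known for expression in the vomeronasal organ.

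The 2 genes that encode no MHC chain each had a promoter peak over a start. That of H2-Ke2, which encodes a prefoldin subunit, was 785 bp wide and also lay at a start of Wdr46. That of H2-Ke6, which encodes a hydroxysteroid dehydrogenase, was 695 bp wide.

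The peak just inside the 1-kb limit was the intronic one of Oa at 991 bp. Just outside it were the upstream peak of Oa at 1077 bp, that of the distal Q2 at 1212 bp, both genes with a promoter peak in any case, and that of the proximal Q2 at 1252 bp.

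**Figure D2:**
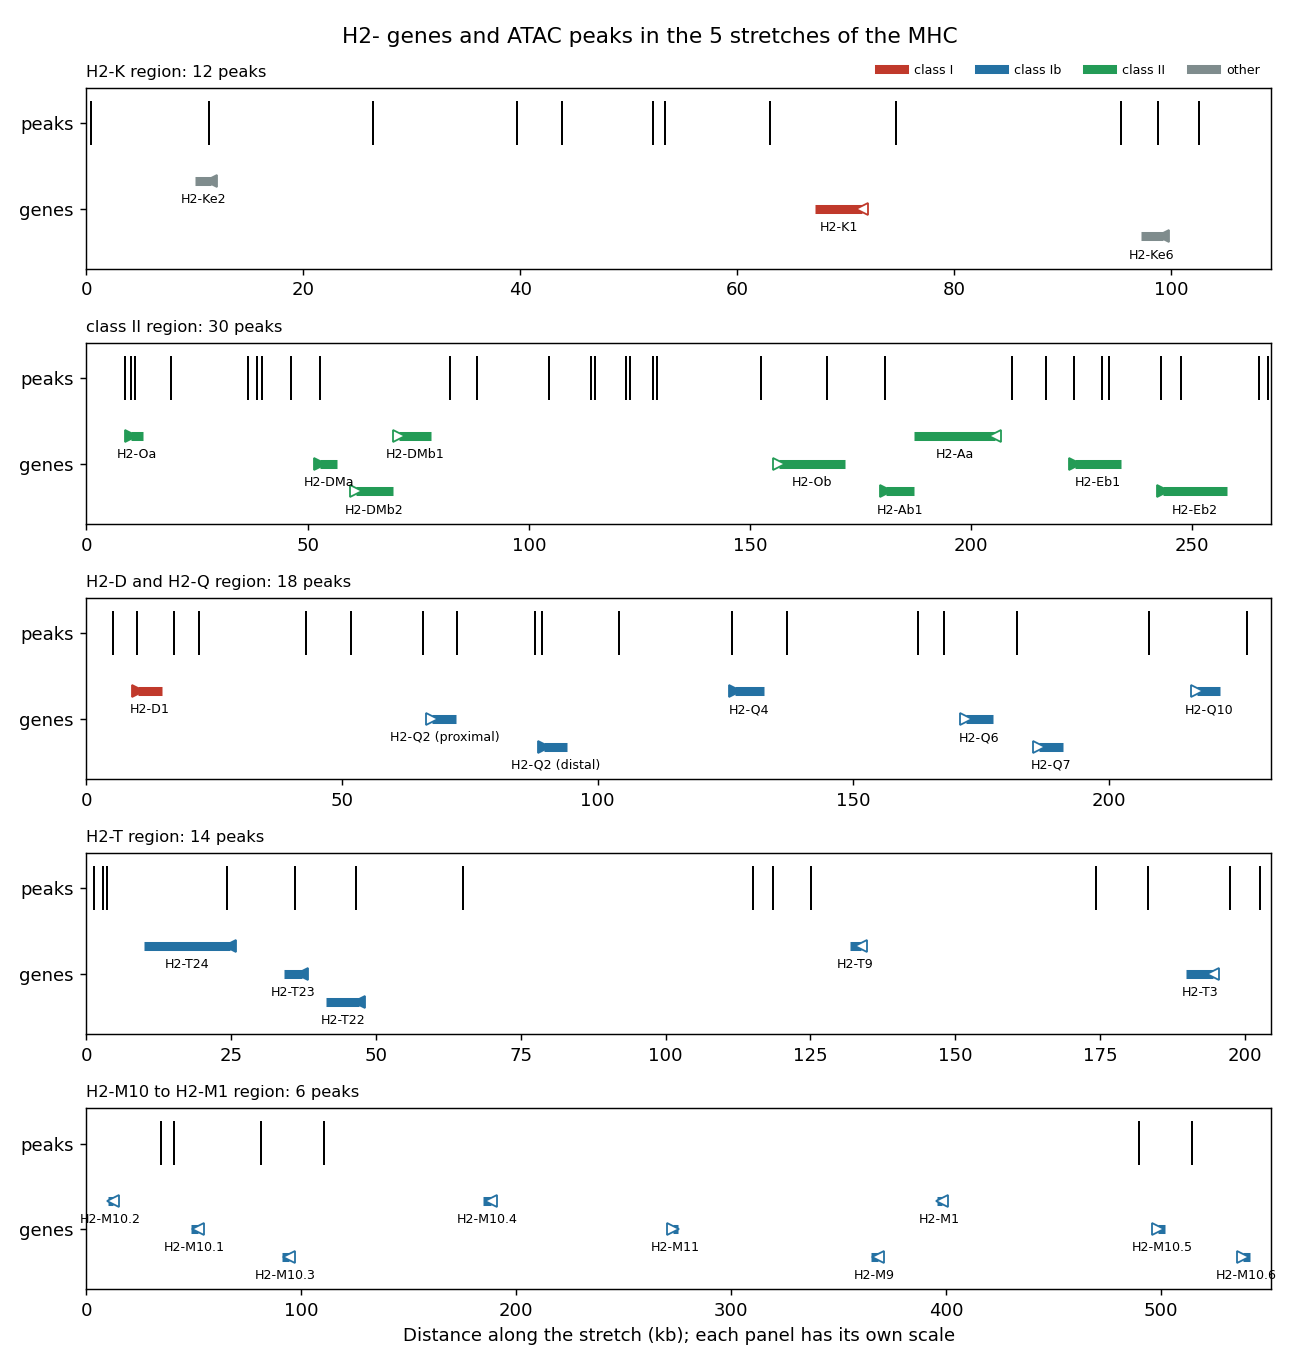
Position of the H2- genes (bars coloured by class, arrowheads at the most 5′ start, filled where a promoter peak was found) and of all ATAC peaks (ticks) in 5 stretches of chromosome 17, each spanning the named genes plus 10 kb, with distance in kb on a scale of its own. There are 12, 30, 18, 14 and 6 peaks from top to bottom, and the bottom stretch is by far the longest.

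Peaks were densest in the class II and H2-K stretches and sparse along the H2-M genes. Their density was 110 peaks per Mb in the H2-K stretch (12 peaks), 112 in the class II stretch (30 peaks), 77.6 from D1 to Q10 (18 peaks), 68.4 from T24 to T3 (14 peaks) and 10.9 from M10.2 to M10.6 (6 peaks in 0.551 Mb). The whole of chromosome 17 had 17.3 per Mb. From Ke2 to 10 kb past M2, the longest run without a peak was 379 kb (chr17:36522241-36901103), and M10.4, M11, M9 and M1 lie in it. H2-M2, at the far end, had no peak within 212344 bp on either side. Peaks in the class II stretch also belong to the class I pathway genes that sit there, such as Tap1, Psmb9, Psmb8 and Tap2. Of the 12 peaks in the H2-K stretch, 2 were counted for H2-K1.

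Promoter peaks of H2- genes were narrow for the class II genes and wide for several class Ib genes. The 15 peaks had a median width of 629 bp (399 to 1270 bp), beside a median of 870 bp (quartiles 660 and 1086 bp) over the 10738 promoter peaks of all coding genes. The 6 of class II genes were 399 to 629 bp wide, all under the lower quartile of all genes, and with D1 and the distal Q2 they made up the 8 that were. The 4 wider than the median of all were those of T24, T23, T22 and M3, while that of Q4 equalled it.

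**Figure D3:**
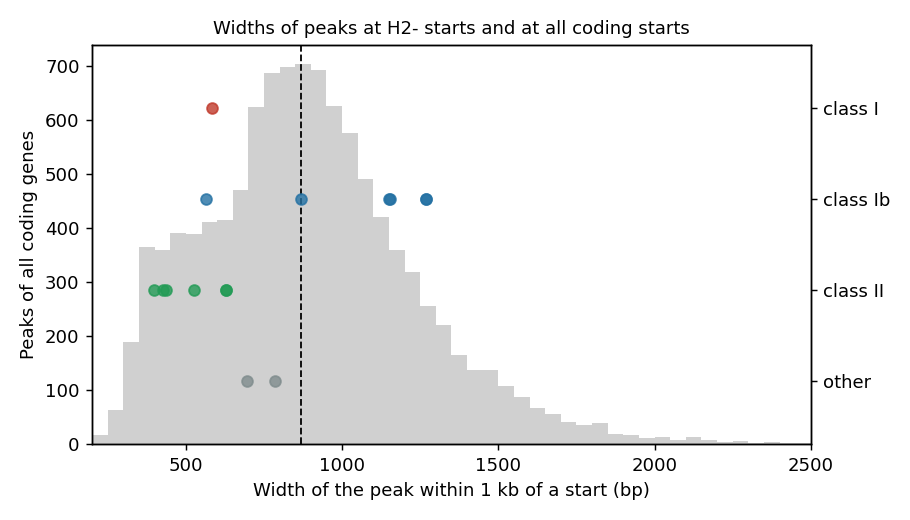
Widths in bp of the 15 promoter peaks of H2- genes (points, by class on the right axis) over the distribution of the 10738 promoter peaks of all coding genes (grey bars, number of peaks per 50 bp on the left axis), with the dashed line at the median of all, 870 bp. The class II points lie between 399 and 629 bp and 4 of the 6 class Ib points lie above 1100 bp.

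The sequence of the upstream peak of H2-K1 recurred upstream of the class Ib genes Q6, Q7 and Q10, but was not found upstream of H2-D1. It also recurred upstream of K2 and Q8, which are annotated as pseudogene or non-coding. Sequence of at least 85% identity over at least 50% of that peak was found at 7 places, all on chromosome 17, and apart from K1 itself the identity was 91.7 to 94.7%. In 6 of the 7 places the next H2- gene started 3150 to 4056 bp downstream: K2 (3415 bp), K1 (3150 bp), Q8 (3982 bp), Q6 (4031 bp), Q7 (3961 bp) and Q10 (4056 bp). The last place, chr17:35432726-35433098, has no H2- start within 10 kb downstream. A peak lay at 6 of the 7 places, 358 to 492 bp wide, and the copy upstream of Q10 had none. Of the 50-mers of these peaks, 90.8% were unique at K1, 59.7% at Q8, 67.3% at Q6 and 63.2% at Q7, and the part of repeated sequence in the presence or absence of a peak was not tested. Each of the 7 holds CCACCAGGNGGCGC, letters of the motif of the insulator protein CTCF. The peak at the Q8 copy (367 bp) is the one counted 4462 bp past the end of H2-Q4. The CTCF letters were in 5 of the 56 H2- peaks (8.93%) and in 157 of all 32527 peaks (0.483%). They were searched after the element had been read, and 4 of the 5 peaks are copies of that element. The other lies past the end of H2-Oa (669 bp).

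The middle of the element is printed, 100 bases of each copy, in the direction of transcription of the gene named. Capitals mark bases that do not match the K1 copy. The places are chr17:34119291-34119390 and chr17:34140571-34140670 (minus strand), and chr17:35526847-35526946, chr17:35557526-35557625, chr17:35571899-35571998 and chr17:35602733-35602832 (plus strand).
H2-K2: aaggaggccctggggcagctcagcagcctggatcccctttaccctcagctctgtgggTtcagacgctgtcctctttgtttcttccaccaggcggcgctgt
H2-K1: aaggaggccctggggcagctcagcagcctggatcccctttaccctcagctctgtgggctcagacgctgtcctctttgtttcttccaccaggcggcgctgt
H2-Q8: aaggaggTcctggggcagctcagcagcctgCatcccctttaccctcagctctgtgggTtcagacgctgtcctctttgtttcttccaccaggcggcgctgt
H2-Q6: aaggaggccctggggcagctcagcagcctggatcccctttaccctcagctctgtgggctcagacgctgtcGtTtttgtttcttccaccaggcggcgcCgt
H2-Q7: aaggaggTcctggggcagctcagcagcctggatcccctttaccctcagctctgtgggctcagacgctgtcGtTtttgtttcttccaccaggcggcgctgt
H2-Q10: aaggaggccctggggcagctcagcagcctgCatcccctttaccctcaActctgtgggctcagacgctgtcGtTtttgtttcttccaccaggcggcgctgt

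The copies upstream of K2, Q8, Q6, Q7 and Q10 shared 99, 97, 97, 97 and 96 of the 100 bases with that of K1. Over the whole aligned stretch their identity was lower, at 94.7, 93.5, 94.4, 91.7 and 93.9%, so the printed middle differs less than the rest. The Q10 copy, the one without a peak, keeps the CTCF letters.

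Since 1 alignment was kept per read, repeated sequence can gain or lose peaks, and the start windows (1 kb on either side of the most 5′ start) were searched for copies. A window was called copied when at least 80% of it aligned elsewhere at 95% identity or more. This held for 3 of 36 H2- windows (8.33%), beside 6.82% of the 1055 windows of other coding genes of the chromosome. The 3 were Q6 and Q7, which match each other at 96.9 and 97%, and T9, which matches a place beside Gm11127 at just under 98%. None of the 3 had a promoter peak. Their share of 50-mers that occur once was 41.4% (Q6), 46.7% (Q7) and 51.8% (T9).

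Below that limit, H2-T23 and H2-T22 matched a place beside C920025E04Rik at 94.9% and the start of H2-T10 at 93.8%, with 53.9 and 75.7% of 50-mers unique, and both had a promoter peak. The median over the 36 windows was 96.7% of 50-mers, beside 99.8% over the other windows of the chromosome, and 6 of 36 (16.7%) had all 50-mers unique, beside 48.1%. Among the class II genes, Ab1, Aa and Eb1 had all of them unique and DMb1 the fewest, 83.7%, with 89.6% identity to DMb2. The 6 H2-M10 windows resemble one another, at 81.9 to 88.1% identity where they aligned, but kept at least 90.5% of 50-mers unique.

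**Figure D4:**
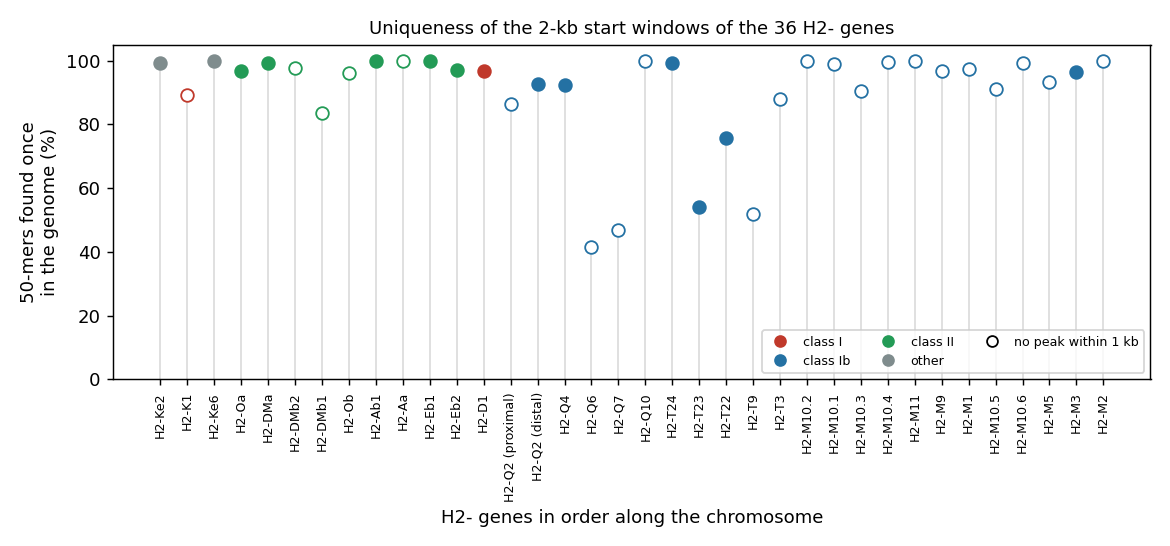
Share in percent of the 50-mers of each 2-kb start window that occur once in the mm9 genome, for the 36 H2- genes in chromosomal order, with filled points for genes with a promoter peak and open points for those without. The lowest points are Q6, Q7, T9 and T23, between 41.4 and 53.9%, and of these T23 has a promoter peak.

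Of the 56 peaks, 8 had a copy at 95% identity over 80% of their length, and 33 had all 50-mers unique. A peak 8558 bp upstream of Q6 (chr17:35552307-35553237) and one 8539 bp upstream of Q10 (chr17:35597515-35598495) are 99.6% identical to each other, with 2.49 and 2.68% of 50-mers unique, so reads from either place could not be told apart over most of their length. Another, 5267 bp past the end of Q10 (chr17:35616775-35617181), had 15.4% unique and 89 copies of at least 90% identity over 50% of its length. It is 1 of the 2 peaks counted for Q10, so both peaks near that gene rest on repeated sequence.

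Further letters were counted in the 300-base windows at the most 5′ start of all 22380 coding genes, on both strands. CCAAT was in 26 of 36 H2- windows (72.2%), beside 37.9% of all, and TGACG in 12 (33.3%), beside 23.3%. GGGATTCCC was in 3 (K1, Q6 and Q7), beside 0.362% of all, and also in the D1 window shown above. ACNGATG alone was in 18 (50%), beside 9.14%. GAAANNGAAA, the letters of an interferon-stimulated response element, were in 4, all class Ib (distal Q2, T23, T22 and T9), beside 3.78%. GGGCGG, read by SP factors, was in 4 (11.1%), beside 43.4%. A window was CpG-rich, with 50% GC or more and a ratio of observed to expected CpG of 0.6 or more, in 1 H2- gene (Q10, 62.3% GC and ratio 0.654), beside 42.0% of all genes. The D1 window shown above, at the later start, also met both limits (62.3% GC and ratio 0.653).

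TGGGAA, the core letters of the RBPJ motif, were in 18 of 36 windows (50%), beside 24.3% of all. They were in 16 of 23 class Ib windows, 2 of 9 class II windows (Ob and Aa) and neither class I window. All 6 H2-M10 windows held them and none of these genes had a promoter peak. In M10.1, M10.3, M10.4, M10.5, M10.6 and M11 the letters lay at similar distances before the start, on the same strand. Windows of related genes are not independent of one another, so the share over H2- genes was not tested. Among the peaks themselves, 29 of 56 (51.8%) and 9 of the 15 promoter peaks (60.0%) held the letters, beside 42.5% of all 32527 peaks. The set of all peaks is not limited to promoters and was not matched for width or base content. A match of 6 letters is not a binding site, and RBPJ binding was not analysed here.

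The partners of the H2- genes were looked at in a list of 39 antigen presentation genes. A promoter peak was found for 31 of 39 (79.5%), beside 46.9% of all coding genes, and all 39 had a peak in the gene plus 10 kb, beside 65.1%. All 14 class I pathway genes had one, among them B2m (977 bp), the light chain of class I, the peptide transporter gene Tap1 and the immunoproteasome gene Psmb9, which share a peak of 1381 bp, and Tapbp (791 bp), which encodes tapasin. Of 5 class II pathway genes, Ctsl and Lgmn, both endosomal proteases, had one, and Cd74 (the invariant chain), Ctss and Ifi30 had none. Of 15 regulators, 12 had one, among them Rfx5, Rfxank, Nfya, Nfyb, Nfyc, Creb1, Irf1 and Nfkb1. Ciita, Nlrc5 and Rfxap had none. Of 5 other presenting molecules, Cd1d1, Mr1 and Hfe had one and Cd1d2 and Fcgrt had none. The widest promoter peaks on the list were those of Nfya (1747 bp), Calr (1494 bp), Erap1 (1447 bp), Tap1 with Psmb9 (1381 bp) and Mr1 (1376 bp).

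The cell type label was checked on marker genes. A promoter peak was found at 11 of 12 progenitor T-cell genes, among them Ptcra, Rag1, Rag2, Bcl11b, Tcf7 and Notch1, and the remaining one, Cd3d, had its nearest peak 1119 bp from a start. None was found at 8 myeloid and dendritic cell genes such as Csf1r and Itgax, beside 46.9% of all coding genes, while 5 of the 8 had a peak in the gene plus 10 kb, beside 65.1%. Whether other cells had a part in the class II peaks was not tested.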

How the data were processed

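Per the study's methods, the authors trimmed the reads, aligned them to mm9 with HISAT2 2.2.1 with 1 alignment kept per read, and took out duplicates (Picard). Peaks were called by MACS2 with no input, those in 3 of 6 libraries were retained, and blacklisted regions were dropped. The deposited list holds 1 interval per peak, in bp, and the deposited score is 0 in every row and was not used. The labels give the DAPT dose as 10 mg/ml and the methods as 10 μg/ml. Labels group the libraries as 3 DMSO and 3 GSI. Read depth was not analysed here, so its precision is unknown, and counts carry no replicate error.

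Peaks were set against GENCODE vM1 on NCBIM37, the same assembly as mm9, with an overlap of 1 bp, and printed positions count from 1. Nlrc5 and Ptcra are not coding in vM1 and were looked up in any gene type. Copies were searched with minimap2 2.31 (asm20) and by counting 50-mers and 100-mers on both strands. Python 3.11.15, numpy 2.4.6, pysam 0.24.0 and matplotlib 3.10.9 were used. The interval, k-mer and motif searches were tested on simulated data. Members, classes and lists were chosen with earlier results of these data known. Named were all class I and II genes, class Ib and other genes with a peak or a copy, list genes without a promoter peak and the 5 widest; further names were chosen after their values were seen. Distances, starts, widths, flanks and copy limits were varied. The B-cell marker list is not reported here.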

Additional observations from a re-analysis of the deposited data

How the results depend on the processing

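No paired analysis was possible because peaks are deposited without a value for each library, so no library could be left out either and GSI was not compared with DMSO. Without members whose windows have copies, and without H2-Ke2 and H2-Ke6, the counts stayed within 1.5 times. With a limit of 5 kb, both class I genes and 10 class Ib genes counted. With peaks of at least 500 bp only, 3 class II genes had a promoter peak (Eb1 and Eb2 were lost) and the distinct peaks fell to 30. These numbered 19 in gene bodies, 37 with 5 kb and 115 with 50 kb of flank, and 15 genes had a peak in the gene body. Copied windows numbered 6 at 90% identity over 50%, 0 at 98% over 80% and 0 by 100-mers under 50% unique. The share of all coding genes with a promoter peak was 44.0% at 0 bp, 45.7% at 500 bp, 49% at 2 kb, 53.8% at 5 kb, 43.9% for the most 5′ start, 46.1% for coding transcripts, 46.2% by peak centre and 43.8% for peaks of at least 500 bp. The letters of the X box, CTCF and RBPJ motifs in peaks and the element search were added after seeing the data, as was counting H2- symbols of any gene type (15 of 42 with a promoter peak). The list cannot show how open a peak was, nor a peak held by fewer than 3 libraries.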
